A study of Rattus norvegicus with 4 samples.

Results

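The genes described here encode 9 transient receptor potential (TRP) channels of sensory neurons, Trpv1, Trpv2, Trpv4, Trpa1, Trpm8, Trpm2, Trpm3, Trpm4 and Trpm7, taken by name from the protein-coding genes among 33506 genes in the deposited count table. Lumbar dorsal root ganglia (DRG) were pooled from wild-type Wistar rats and sequenced, giving 2 libraries for the vehicle group and 2 for the cisplatin group. Cisplatin, a platinum chemotherapeutic, was injected intraperitoneally at 0.3 mg/kg on 2 days in the third postnatal week, and controls received phosphate-buffered saline by the same route. The labels place collection 16 days after treatment, whereas the study's methods give an earlier day, and the sex of the rats is not given by library. The labels name a separate rat for each library.

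TRP channels are cation channels, mostly of the plasma membrane, and in the endings of sensory neurons several of them turn heat, cold and irritants into depolarisation. TRPV1 opens to capsaicin, acid and noxious heat, TRPA1 to reactive irritants such as mustard oil, and TRPM8 to cooling and menthol. Inflammatory mediators sensitise TRPV1, and that link is why these genes bear on a study of pain after cisplatin.

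Total counts ran from 21384801 to 25618417 per library. Uchl1 and Prph, neuronal genes with the highest levels in a list of 14 pan-neuronal markers, averaged 2023 and 1649 FPKM over the 4 libraries, so neuronal RNA was readily detected. The other markers of the list were lower, down to 3.53 FPKM for Eno2. Counts differed between libraries of the same group: the summed counts scaled to library size (CPM, with TMM factors) of 10 Schwann cell markers were 62717 (replicate 1) and 158961 (replicate 2) for vehicle against 48738 and 138997 for cisplatin. Vehicle replicate 1 also held more skeletal muscle marker RNA, at 482 CPM summed over the 4 markers in the table against 12.8 to 49.7 CPM in the other libraries. Transcripts of protein-coding genes on the mitochondrial chromosome took 1.46% and 2.52% of counts in the vehicle libraries and 5.38% and 4.68% in the cisplatin libraries.

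All 9 TRP genes passed the filter on low counts. None was called between the groups (0 of 9) by edgeR's quasi-likelihood test, where a call needed a p under 0.05 after Benjamini-Hochberg adjustment and at least a 1.5-fold difference, a rule that called 0.00679% of the 14719 protein-coding genes tested. DESeq2, which called 0.549% of genes, also called 0 of the 9, as did limma on log2(FPKM + 1) and log2(FPKM + 0.1), which called 0.0272% and 0.0136%. Trpm3 and Trpm7 were the 2 members at an unadjusted p under 0.05, both lower after cisplatin, where 9.43% of all genes tested were at such a p and 5.73% were lower at it. They were also the 2 members whose vehicle and cisplatin libraries did not overlap, a property shared by 41.8% of all genes tested, made up of 21.2% with cisplatin below and 20.6% with cisplatin above. The fold change was above zero for 4 members and below it for 5 (1 and 8 when libraries were scaled to pan-neuronal markers), with a median of -0.24 on the log2 scale against -0.01 over all genes tested. In whole ganglia, fewer cells of a type and less RNA per cell cannot be told apart.

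**Figure D1:**
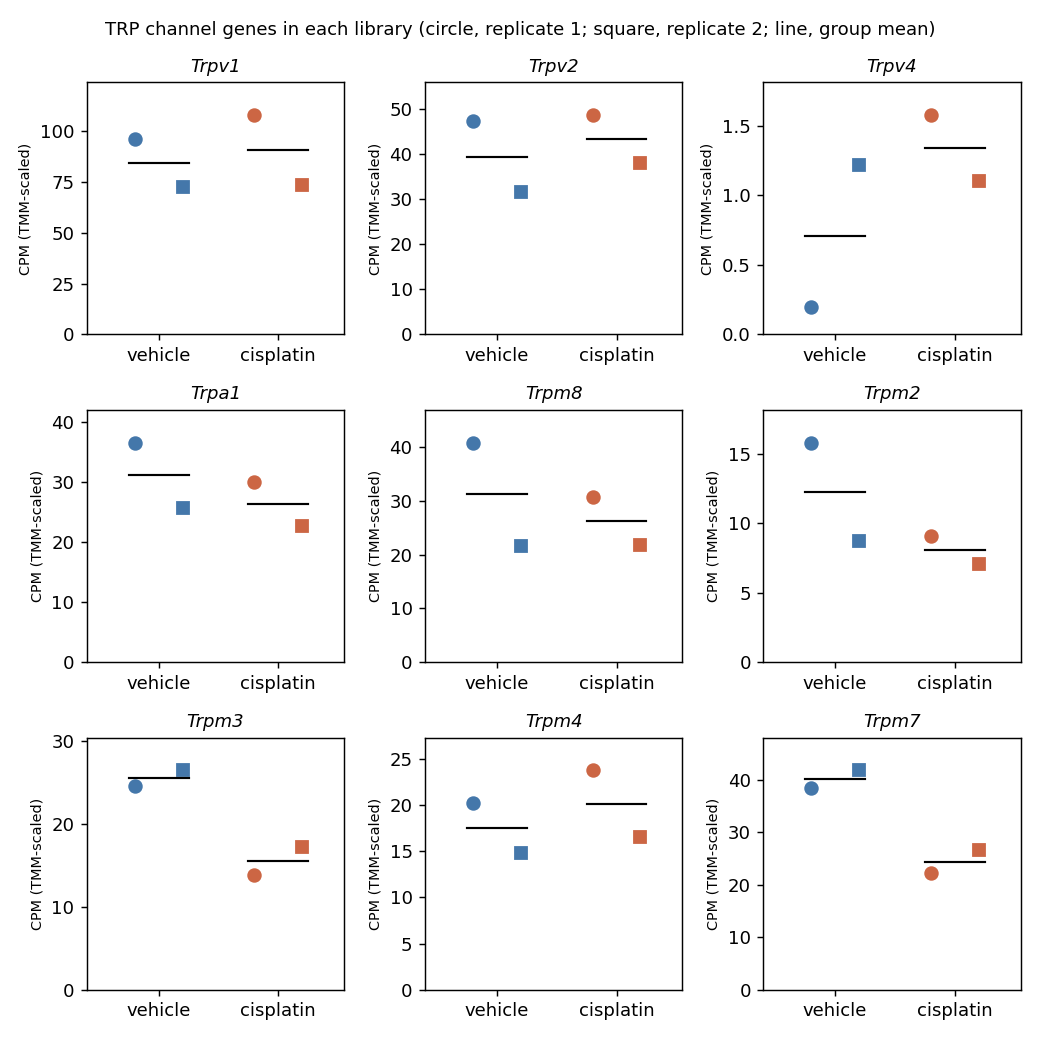
CPM of each TRP gene (vertical axis, linear from 0, TMM-scaled) in the vehicle (blue) and cisplatin (orange) libraries, with circles for replicate 1, squares for replicate 2 and lines for group means. In Trpm3 and Trpm7 both cisplatin libraries lie below both vehicle libraries, and in the other 7 genes the groups overlap.

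Trpm3 (ENSRNOG00000027770, Rnor_6.0 chromosome 1, 240355149 to 240757583, plus strand) encodes a channel opened by heat and by the steroid pregnenolone sulphate, and its gene spans 402.4 kb. It stood at 24.6 CPM in vehicle replicate 1, 26.5 in vehicle replicate 2, 13.9 in cisplatin replicate 1 and 17.2 in cisplatin replicate 2, from 352 to 616 counts per library. Both cisplatin libraries were below both vehicle libraries, and the means of 25.5 ± 1.32 and 15.5 ± 2.34 CPM (SD, n = 2 each) differed 1.65-fold. The log2 fold change was -0.72 (SE 0.21, 95% interval -1.25 to -0.19), with an unadjusted p of 0.0166 and an adjusted p of 0.522 by edgeR's quasi-likelihood test. A microRNA gene, Mir204, lies within Trpm3 on the same strand and held 1 count in all, and Aldh1a7 lies within it on the opposite strand and held 0.

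Trpm7 (ENSRNOG00000057806, chromosome 3, 119259467 to 119330345, minus strand) encodes a magnesium- and calcium-permeable channel joined to a kinase domain, which is made by most cell types and not by neurons alone. Its level was 38.6 and 41.8 CPM in the vehicle libraries and 22.2 and 26.6 CPM in the cisplatin libraries. Again the groups did not overlap, with means of 40.2 ± 2.31 and 24.4 ± 3.15 CPM (SD, n = 2 each), a 1.64-fold difference. The log2 fold change was -0.72 (SE 0.20, 95% interval -1.22 to -0.22), with an unadjusted p of 0.0131 and an adjusted p of 0.522 by edgeR's quasi-likelihood test. With each library left out in turn, the log2 fold change of Trpm3 stayed between -0.88 and -0.56 and that of Trpm7 between -0.86 and -0.58.

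Since Trpm3 and Trpm7 had like values, the 250 bases before their annotated starts are shown, with those of Trpv1 and Trpm8, thermosensitive channel genes whose groups overlapped, for contrast. The sequences are RefSeq's for GRCr8, a later assembly than that of the count table, at chr1:229099491-229099740 (plus strand, the first of a pair of starts listed) for Trpm3, chr3:134588114-134588363 (minus strand) for Trpm7, chr10:58349686-58349935 (plus strand) for Trpv1 and chr9:96351433-96351682 (plus strand) for Trpm8. They read 5′ to 3′ on the gene's strand, and capitals mark matches, on either strand, to the GC box GGGCGG, the CCAAT box, TATAAA or TGTGGT, the core bound by Runx factors, which act in sensory neuron development.
Trpm3: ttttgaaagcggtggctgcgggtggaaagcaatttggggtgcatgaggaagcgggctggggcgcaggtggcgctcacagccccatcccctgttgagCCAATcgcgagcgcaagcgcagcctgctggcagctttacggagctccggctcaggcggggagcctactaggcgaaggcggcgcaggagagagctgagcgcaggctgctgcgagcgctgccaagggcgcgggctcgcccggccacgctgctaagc
Trpm7: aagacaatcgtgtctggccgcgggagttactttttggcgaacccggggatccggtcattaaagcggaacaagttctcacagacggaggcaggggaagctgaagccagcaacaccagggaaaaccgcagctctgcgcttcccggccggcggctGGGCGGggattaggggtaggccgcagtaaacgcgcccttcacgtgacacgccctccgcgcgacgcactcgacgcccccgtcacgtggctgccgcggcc
Trpv1: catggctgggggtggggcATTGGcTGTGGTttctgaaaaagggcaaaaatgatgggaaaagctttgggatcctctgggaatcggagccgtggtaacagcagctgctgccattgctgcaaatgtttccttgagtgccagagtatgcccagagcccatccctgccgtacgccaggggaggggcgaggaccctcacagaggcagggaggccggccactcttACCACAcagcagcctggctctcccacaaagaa
Trpm8: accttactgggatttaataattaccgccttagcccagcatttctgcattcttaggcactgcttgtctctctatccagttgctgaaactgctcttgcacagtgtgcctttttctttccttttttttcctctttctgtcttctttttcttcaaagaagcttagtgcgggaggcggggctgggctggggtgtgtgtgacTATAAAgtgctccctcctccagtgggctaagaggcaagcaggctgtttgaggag
Trpm7 held 1 GC box match, 98 bases before its start, and Trpm3 1 CCAAT match, 154 bases before it, so the pair had no motif of these in common. Trpv1 held 1 CCAAT and 2 TGTGGT matches, and Trpm8 1 TATAAA match, 54 bases before its start. No matches overlapped in these windows. Over 33465 promoter windows of the same length, 30.5% held GGGCGG, 34% CCAAT, 12.9% TATAAA and 14.5% TGTGGT. CpG pairs numbered 23 in the window of Trpm3 and 29 in that of Trpm7, against 6 in Trpv1, 3 in Trpm8 and a median of 5 over all windows. Many CpG pairs were not particular to this pair of genes. Among the members whose groups overlapped, Trpv4 had 25, Trpm4 21, Trpm2 14 and Trpv2 7. The window of the second start listed for Trpm3 had 6. A match in these windows is a match of letters, and binding was not measured.

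Fold changes in these libraries followed gene length, and the TRP genes are long. Over the 14719 genes tested, Spearman's rho between the log2 fold change and the gene length given in the tables was -0.357, a description across genes that share the same 4 libraries. When the genes were cut into 5 bins of length, those in the longest bin, from 4027 to 28192 bases, had a median log2 fold change of -0.23, and those in the shortest, from 105 to 1372 bases, one of 0.24. Trpm3 and Trpm7, at 6560 and 5644 bases, are the longest of the members, whose median length was 4157 bases against 2371 over all genes tested. With gene length fitted as an offset, the log2 fold change was -0.44 for Trpm3 and -0.48 for Trpm7, with unadjusted p of 0.0745 and 0.0481 and adjusted p of 0.714 and 0.708 by edgeR's quasi-likelihood test. Both stayed the lowest of the 9 with that offset, but Trpm3 was no longer at an unadjusted p under 0.05. The part of mitochondrial RNA in these differences was not tested.

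**Figure D2:**
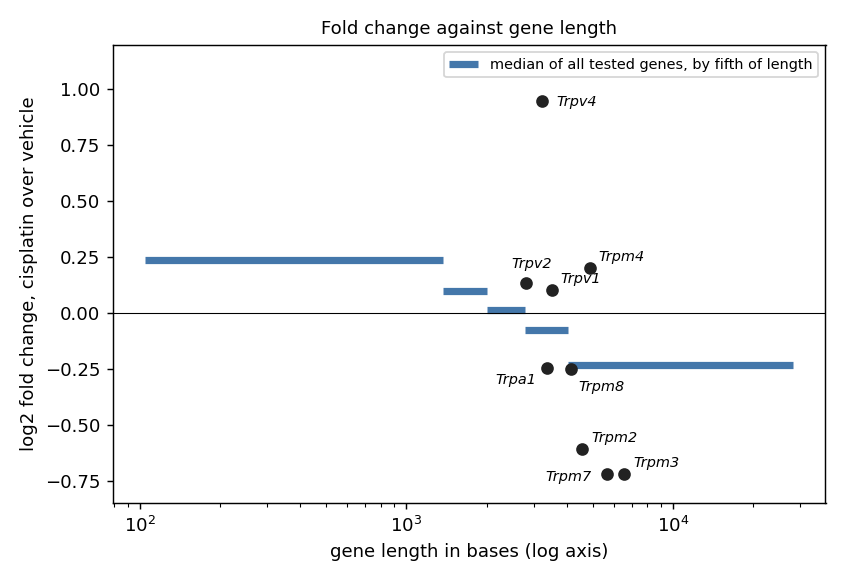
Log2 fold change of cisplatin over vehicle (vertical axis) against gene length in bases (horizontal log axis), with the 9 TRP genes as points and the median of all tested genes in each of 5 length bins as a bar. The bars step down from 0.24 in the shortest bin to -0.23 in the longest, and Trpa1, Trpm8, Trpm2, Trpm3 and Trpm7 lie below the bar at their length, Trpm8 by the least, while Trpv1, Trpv2, Trpv4 and Trpm4 lie above theirs.

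Trpv1 (ENSRNOG00000019486, chromosome 10, 59799123 to 59824674, plus strand), the capsaicin and heat receptor, was at 96.2 (replicate 1) and 72.5 CPM (replicate 2) in the vehicle libraries and at 108 and 73.5 CPM in the cisplatin libraries. Replicate 2 was the lower library in both groups, and the groups overlapped. The log2 fold change was 0.10 (SE 0.27, 95% interval -0.57 to 0.77, adjusted p = 0.912 by edgeR's quasi-likelihood test). Its sign turned with the libraries used, to -0.083 without vehicle replicate 2 and -0.19 without cisplatin replicate 1.

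Trpv2 (ENSRNOG00000003104, chromosome 10, 48903540 to 48925030, plus strand) encodes a relative of TRPV1 that capsaicin does not open. Its level was 47.3 and 31.8 CPM in the vehicle libraries and 48.7 and 38.2 CPM in the cisplatin libraries, which overlapped (log2 fold change 0.14, SE 0.26, adjusted p = 0.889 by edgeR's quasi-likelihood test). Trpm4 (ENSRNOG00000020714, chromosome 1, 101293409 to 101323960, minus strand) encodes a channel for monovalent cations that intracellular calcium opens. It read 20.2 and 14.8 CPM in the vehicle libraries and 23.8 and 16.5 CPM in the cisplatin libraries, again with replicate 2 lower in each group and with overlapping groups (log2 fold change 0.20, SE 0.28, adjusted p = 0.833 by edgeR's quasi-likelihood test). The sign of both also turned without vehicle replicate 2 (Trpv2 -0.12, Trpm4 -0.0011) and without cisplatin replicate 1 (Trpv2 -0.044, Trpm4 -0.077).

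Trpa1 (ENSRNOG00000007354, chromosome 5, 3783247 to 3836485, plus strand), the receptor for reactive irritants, was at 36.6 and 25.7 CPM in the vehicle libraries and 30.0 and 22.6 CPM in the cisplatin libraries. Trpm8 (ENSRNOG00000019035, chromosome 9, 95398237 to 95482890, plus strand), the cold and menthol receptor, was at 40.8 and 21.6 CPM in the vehicle libraries and 30.7 and 21.8 CPM in the cisplatin libraries. For both genes vehicle replicate 1 was the highest library, the groups overlapped, and vehicle replicate 2 lay within the cisplatin range for Trpa1 and just under it for Trpm8. Their log2 fold changes were -0.24 (SE 0.27, adjusted p = 0.78) and -0.25 (SE 0.36, adjusted p = 0.839) by edgeR's quasi-likelihood test, and without vehicle replicate 1, the library with raised muscle markers, they were 0.040 and 0.29.

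Trpm2 (ENSRNOG00000001216, chromosome 20, 11436267 to 11482051, plus strand) encodes a channel opened by ADP-ribose and by oxidative stress, and it is known from immune cells as well as neurons. The vehicle libraries held 15.8 and 8.74 CPM and the cisplatin libraries 9.09 and 7.06 CPM. Vehicle replicate 1 stood above the other libraries, and vehicle replicate 2 lay between the cisplatin libraries. The log2 fold change of -0.61 (SE 0.35, adjusted p = 0.605 by edgeR's quasi-likelihood test) became -0.11 without vehicle replicate 1. Summed over 13 macrophage markers, by comparison, the level was 146 and 165 CPM in the vehicle libraries and 189 and 202 CPM in the cisplatin libraries. Of the 13, 5 were above, 4 below and 4 overlapped, against 20.6% above and 21.2% below over all genes tested.

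Trpv4 (ENSRNOG00000001195, chromosome 12, 47698947 to 47737902, plus strand), which encodes a channel opened by cell swelling and warmth, had the fewest counts of the 9. It had 5 and 24 counts in the vehicle libraries and 40 and 26 counts in the cisplatin libraries, or 0.20, 1.22, 1.57 and 1.11 CPM, where 3 counts correspond to 0.118 to 0.152 CPM and cover counting error only. One vehicle library was low and the other lay between the cisplatin libraries. The log2 fold change of 0.95 (SE 0.83, adjusted p = 0.723 by edgeR's quasi-likelihood test) was 0.14 without vehicle replicate 1 and 2.72 without vehicle replicate 2, so its size rested on which vehicle library was used.

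**Figure D3:**
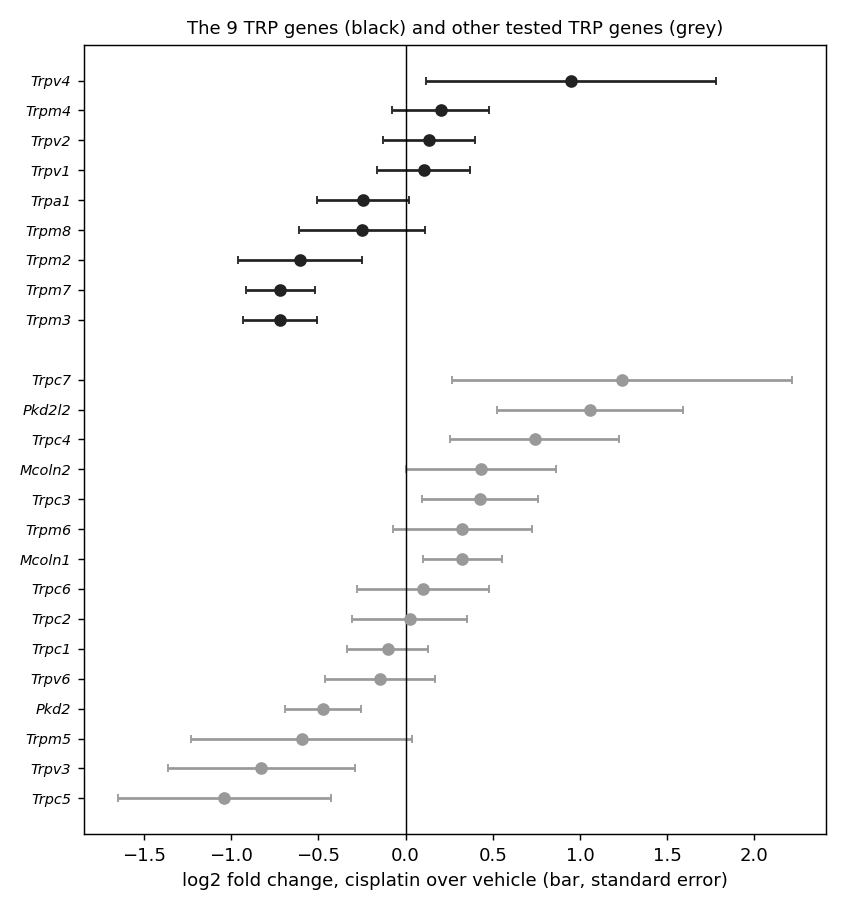
Log2 fold change of cisplatin over vehicle (horizontal axis) for the 9 TRP genes (black) and the 15 other TRP genes tested (grey), with standard errors from the edgeR fit as bars. Trpm3 and Trpm7 lie at -0.72 with short bars, whereas Trpv4 lies at 0.95 with a bar of 0.83.

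Between genes, levels were compared on the deposited length-normalised scale, FPKM (fragments per kilobase of gene, scaled to library depth). Trpv1 was the most abundant at a mean of 24.4 FPKM (range 20.0 to 30.1 over 4 libraries), followed by Trpv2 at 14.5 FPKM (11.0 to 17.0), and neither range touched the next. Then came Trpa1 at 8.30, Trpm8 at 6.76, Trpm7 at 5.59, Trpm4 at 3.78, Trpm3 at 3.05 and Trpm2 at 2.18 FPKM, and each of these overlapped in range with its neighbour. Within libraries the order was steadier for some neighbours, since Trpa1 was above Trpm8 and Trpm3 above Trpm2 in 4 of 4 libraries, while Trpm8 was above Trpm7, Trpm7 above Trpm4 and Trpm4 above Trpm3 in 3 of 4. Trpv4 was lowest at 0.311 FPKM, 7.01-fold below Trpm2 and without overlap. Trpv1 made up 33% to 39.5% of the summed FPKM of the 9 genes, and ranked first in each library.

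**Figure D4:**
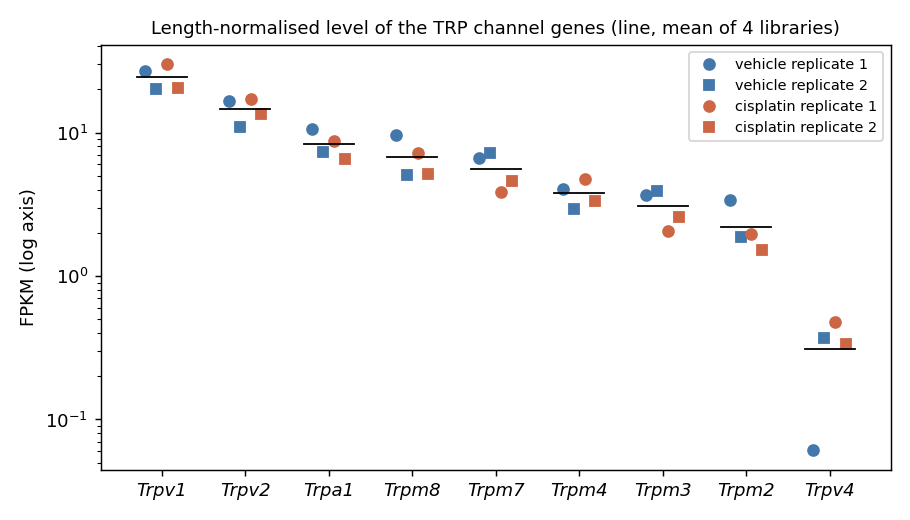
FPKM of each TRP gene (vertical log axis), ordered by its mean over 4 libraries (line), with blue for vehicle, orange for cisplatin, circles for replicate 1 and squares for replicate 2. Trpv1, at 20.0 to 30.1 FPKM, and Trpv2, at 11.0 to 17.0 FPKM, lie above all others, and Trpv4 lies at 0.311 FPKM on average.

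The members fell into 2 patterns across libraries of the same group. Trpv1, Trpv2, Trpa1, Trpm8, Trpm2 and Trpm4 were lower in replicate 2 than in replicate 1 in both groups, by differences of log2 CPM from -0.92 to -0.41 in vehicle and from -0.55 to -0.35 in cisplatin. Trpm3 and Trpm7 instead were slightly higher in replicate 2, by 0.11 and 0.12 in vehicle and by 0.31 and 0.26 in cisplatin. The summed pan-neuronal markers went the way of the first set, with differences of -0.30 in vehicle and -0.55 in cisplatin, as did peptidergic nociceptor markers (-0.47 and -0.43) and nonpeptidergic nociceptor markers (-0.56 and -0.78). So did large fibre neuron markers (-0.41 and -0.46) and, among glia, satellite glia markers (-0.29 and -0.20). Schwann cell markers went the other way by 1.34 and 1.51, and fibroblast and meninges markers by 0.47 and 0.95. Trpv4 differed by 2.61 in vehicle and -0.51 in cisplatin, on few counts. These are descriptions of 2 pairs of libraries, and the part of the neuron and Schwann cell shares in the treatment differences was not tested.

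**Figure D5:**
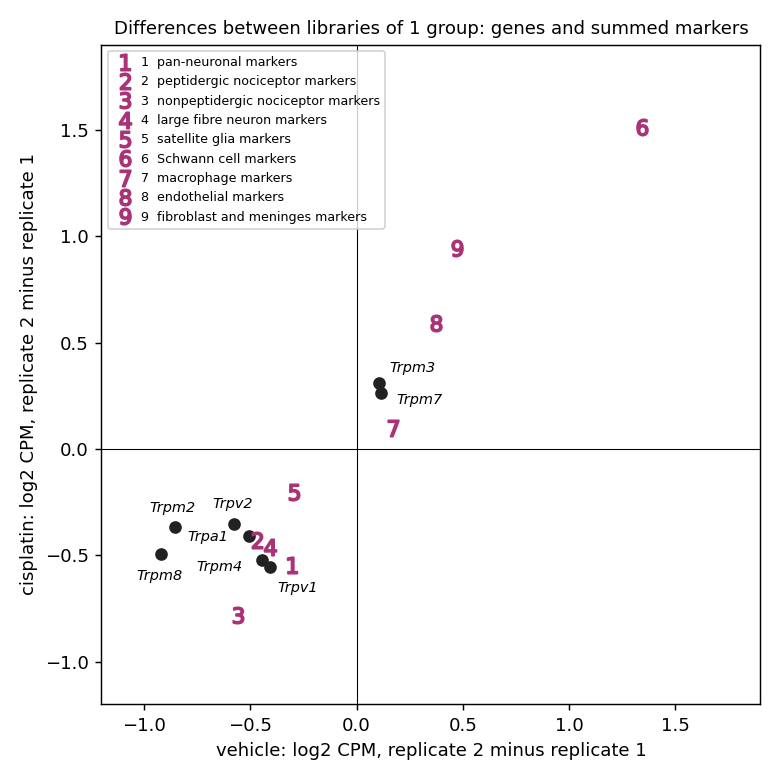
Difference of log2 CPM between replicate 2 and replicate 1 in the vehicle group (horizontal axis) and in the cisplatin group (vertical axis), for 8 TRP genes (points, Trpv4 left out for its few counts) and the summed markers of 9 cell types (numbers). The points of 6 TRP genes lie at lower left with the neuronal and satellite glia markers, and Trpm3 and Trpm7 lie just right of and above zero, with the macrophage markers.

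Set beside neuronal RNA, most members were lower after cisplatin. The geometric mean of the 14 pan-neuronal markers was 235 and 174 CPM in the vehicle libraries and 284 and 204 CPM in the cisplatin libraries, and each member's log2 CPM was taken relative to it in each library. The markers themselves did not all go one way in CPM, where 20.6% of all genes tested were above and 21.2% below. Between the groups 7 of the 14 were above, 6 overlapped and 1 was below. The one below was Map2, a gene for a dendritic microtubule protein, named after its values were seen. Its log2 fold change was -1.23 (unadjusted p = 0.0254 and adjusted p = 0.522 by edgeR's quasi-likelihood test). Map2, at 6072 bases, stood at 70.7 CPM in vehicle replicate 1, 30.6 in vehicle replicate 2, and 21.8 and 21.5 in the cisplatin libraries. The most raised of the 14 were Thy1 (0.84) and Uchl1 (0.77). Elavl3 (-0.42) and Pou4f1 (-0.11) were also lower, with overlapping groups. On the scale relative to the markers, 7 of 9 members had both cisplatin libraries below both vehicle libraries, against 25.2% of all genes tested, and 0 had them above, against 5.8%. Both shares cover genes of all cell types. Set against neuronal markers, a gene that moves with them between replicates loses that shared spread. Trpv1 and Trpm4, which overlapped in CPM, were such genes. The shares are therefore not a like background for these members. The median difference was -0.45 against -0.26 over all genes. An exact two-sided permutation test of 2 against 2 libraries gives no p below 0.333. Any gene whose groups do not overlap gets that value, so for the 7 it only restates the lack of overlap. The differences were -0.98 for both Trpm3 and Trpm7, -0.81 for Trpm2, -0.49 for Trpa1, -0.45 for Trpm8, -0.16 for Trpv1 and -0.057 for Trpm4, while Trpv2 (-0.10) and Trpv4 (1.17) overlapped. Trpm3 and Trpm7 did not move with the neuronal markers between replicates. Their SDs on this scale were 0.38 and 0.39 in vehicle and 0.56 and 0.52 in cisplatin. With 1 library left out, the difference ran from -1.37 to -0.59 for Trpm3 and from -1.35 to -0.61 for Trpm7.

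That scale also mixes genes of different length, since the pan-neuronal markers have a median length of 1926 bases against 4157 for the members. When the gene length offset was applied to members and markers alike, a step added after the values were seen, 5 members stayed below, against 20.5% of all genes tested, 1 was above, against 6.03%, and 3 overlapped. These shares also cover genes of all cell types. Trpm7 was then at -0.71, Trpm3 at -0.66, Trpm2 at -0.60, Trpa1 at -0.36 and Trpm8 at -0.27, while Trpm4 was above at 0.17 and Trpv1 overlapped at -0.028. The direction for Trpm4 therefore depended on the scaling, and that of Trpv1 and Trpv2 did too, since both were above zero with TMM.

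The rest of the TRP superfamily served as a comparison, with 19 genes in the table and 15 tested. None was called (0 of 15; DESeq2 also 0), none was at an unadjusted p under 0.05, and the median log2 fold change was 0.10, with 9 higher and 6 lower. Their groups did not overlap in 6 of the 15 genes, with 3 above and 3 below. Over all genes tested this held for 41.8%, with 20.6% above and 21.2% below. Mcoln1, which encodes a lysosomal channel, had the highest level of these genes at 26.2 FPKM, near that of Trpv1, and it was singled out after its values were seen.

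Of the ligands and receptors that act on TRPV1, TRPA1 or TRPM8, 25 of 27 genes were tested and 0 were called (DESeq2 also 0). At an unadjusted p under 0.05 there were 3 of the 25 genes, where 9.43% of all genes tested were at such a p. F2r, the thrombin receptor, was higher (log2 fold change 0.66). Il6st, the shared signalling subunit of the interleukin-6 family receptors, and Bdkrb2, the bradykinin B2 receptor, were lower (-0.86 and -0.78). Adjusted p was 0.522 for F2r and Il6st and 0.528 for Bdkrb2 by edgeR's quasi-likelihood test. The list had 19 genes higher and 6 lower, with a median of 0.20. Between the groups 3 were above, 2 below and 20 overlapped, against 20.6% above and 21.2% below over all genes tested.

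Among 31 tested genes for kinases, lipases and partners that act on TRP channels inside the cell, 0 were called (DESeq2 also 0). Gnaq, the G protein alpha subunit that couples such receptors to phospholipase C, had 994 and 600 counts in the vehicle libraries and 491 and 376 counts in the cisplatin libraries, a log2 fold change of -0.99 (SE 0.23). Prkca, which encodes protein kinase C alpha, had 1136 and 1117 counts in vehicle and 531 and 843 counts in cisplatin, a log2 fold change of -0.85 (SE 0.31). These were the 2 genes of the 31 at an unadjusted p under 0.05, where 9.43% of all genes tested were at such a p. Their unadjusted p was 0.00637 and 0.0354, with an adjusted p of 0.522 for both, by edgeR's quasi-likelihood test. The list as a whole had 16 genes higher and 15 lower, with a median of 0.01. Between the groups 8 were above, 4 below and 19 overlapped, against 20.6% above and 21.2% below over all genes tested.

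Some other genes followed the nociceptor channels closely across the 4 libraries. By the root-mean-square difference of centred log2 CPM over 11387 candidate genes, Rhobtb2, Pla2g15 and Slc1a4 were nearest to Trpv1, at 0.00928, 0.0125 and 0.0136. Ttc3, Kif1b and Gab2 were nearest to Trpa1, at 0.0122, 0.022 and 0.0292. Among the genes nearest to Trpm8 were Clgn at 0.0399 and Mrgpre at 0.0409. With 4 libraries and many candidates such closeness is a description of these libraries.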

How the data were processed

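Polyadenylated RNA of pooled lumbar DRGs was sequenced from 2 groups of rats, vehicle and cisplatin, at 2 libraries each. The authors mapped reads to Rnor_6.0 and assembled transcripts; the submitters' processing notes name HISAT2 2.0.5, StringTie 1.3.3b and featureCounts 1.5.0-p3. The authors deposited raw counts per gene and FPKM values, which are the counts over gene length times 1 constant for each library. Whether counting used strand is not given in the sources used here, so overlapping genes are uncertain.

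Groups and replicate numbers came from the labels. Counts of protein-coding genes were filtered with filterByExpr (14719 of 22293 kept), TMM-normalised and tested with glmQLFit and glmQLFTest of edgeR 4.0.16 in R 4.3.3 over all 4 libraries. Genes were called at an adjusted p under 0.05 and at least 1.5-fold. CPM values used the TMM-scaled library sizes, whose factors ran from 0.938 to 1.1. A floor of 3 counts set the detection limit. Intervals cover 95%; with no molecular identifiers, reads are not independent molecules. Libraries held 21384801 to 25618417 counts each, and the precision of the group differences also rests on the spread between only 2 libraries per group. The closest pair of libraries, vehicle replicate 2 and cisplatin replicate 2, differed by 47.6 in chi-square over its degrees of freedom, so none was treated as a duplicate. That pair joins the groups, and libraries of the same group were further apart, at 124 for vehicle and 162 for cisplatin. Gene length was fitted as a lowess offset (span 0.3). Alternatives were other scalings, filters, biotypes, DESeq2 1.42.0, limma 3.58.1 on log2(FPKM + 1) and log2(FPKM + 0.1), where changes of low genes are understated, a replicate block, and leaving out each library. The tests were also run on simulated counts, which held no shared replicate effect and no gene length effect, so they do not check the tests against those features.

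The members and gene lists were chosen with earlier results of these data known. Named genes were the members, genes of the other TRP, ligand and regulator lists at an unadjusted p under 0.05 with groups that did not overlap, the top marker genes by FPKM, and the 3 genes nearest to Trpv1, Trpa1 and Trpm8 with at least 100 counts on average. The marker lists are given as summed CPM, with most of their single genes not named. Promoter windows matched 8 of the 9 members. No entry was used for Trpa1. A few single genes that the rule names are not reported here.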

Additional observations from a re-analysis of the deposited data

How the results depend on the processing

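The count of members called was 2 (Trpm3 and Trpm7) with the replicate block and at an unadjusted p under 0.05 with at least 1.5-fold. In each other setting, including an adjusted p without a fold threshold, it was 0. The unadjusted rule with 1.5-fold called 7.95% of all genes tested, with 5.18% lower. For ligands and receptors the count moved from 0 to 5 with the replicate block, to 3 with the block and the gene length offset and to 3 at an unadjusted p, and for channel regulators from 0 to 3, 3 and 2; no other TRP gene was called in any setting. The replicate numbers give only a number to different rats. With the replicate block, the 4 libraries leave 1 residual degree of freedom per gene, so its p-values rest mostly on spread shared across genes. The deviations of same-numbered libraries from their group means correlated at 0.444 over 14719 genes. With the replicate block, 1532 genes were called (10.4%; 7.05% lower), against 1 without it, and Trpm3 and Trpm7 were at -0.73 and -0.72 with adjusted p of 0.0123 and 0.0094 (edgeR). With the block and the gene length offset, 963 genes were called (6.54%), Trpm3 and Trpm7 were at -0.44 and -0.49 with adjusted p of 0.0922 and 0.057 (edgeR), and 0 members were called.

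The median log2 fold change of the members, -0.24, was -0.47 with scaling to the pan-neuronal markers and -0.053 with the block and the length offset, and from -0.47 to 0.14 with 1 library left out, the highest without vehicle replicate 1. Scaling to the pan-neuronal markers moved the median of all genes to -0.26. Under it Trpv1 turned to -0.16, Trpv2 to -0.10 and Trpm4 to -0.058. With 1 library left out, signs also turned, with ranges of -0.19 to 0.35 for Trpv1, -0.12 to 0.46 for Trpv2, -0.077 to 0.45 for Trpm4, -0.47 to 0.040 for Trpa1 and -0.63 to 0.29 for Trpm8. Relative to the pan-neuronal markers, the median of the members, -0.45, was -0.27 with the length offset on both and -0.52 to -0.36 with 1 library left out. Trpm2, Trpm3 and Trpm7 were lower in each setting run, on both scales. Trpv4 was higher in each setting that tested it, except relative to the pan-neuronal markers without vehicle replicate 1, where it was at -0.36. With at least 10 counts in every library Trpv4 was not tested. The causes of these shifts were not tested. Trpv4, with 5 to 40 counts per library, is the member for which depth is lowest.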

Other observations

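Taken relative to Trpv1, a choice made after the values were seen, 6 of the other 8 members did not overlap between the groups. Trpa1 stood at -1.40 and -1.5 on the log2 scale relative to Trpv1 in vehicle replicates 1 and 2, and at -1.85 and -1.70 in cisplatin replicates 1 and 2, a difference of -0.33. Trpm8 (-0.29), Trpm2 (-0.65), Trpm3 (-0.82) and Trpm7 (-0.82) were below in the same way, Trpm4 was above by 0.10, and Trpv2 (0.06) and Trpv4 overlapped. Over all genes tested, 15.2% were below and 10.6% above on this scale, and those shares include genes that do not move with Trpv1 between replicates. With 2 libraries per group none of these can reach an exact two-sided permutation p below 0.333, and the members share their libraries.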
